A study of Homo sapiens with 12 samples.

Results

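The aldo-keto reductases and aldehyde dehydrogenases described here are 10 genes, AKR1B1, AKR1B10, AKR1C1, AKR1C2, AKR1C3, ALDH1A1, ALDH1A3, ALDH2, ALDH3A1 and ALDH3B1, chosen by symbol out of the 62754 genes of a count table. All 10 were found in the table by their Ensembl identifiers, and 9 passed the filter on low counts. The table held 12 libraries of polyadenylated RNA from PC9, an established lung adenocarcinoma line that depends on a mutant EGFR, in 4 groups of 3 cultures. Wild-type cells for TDP1 (which removes trapped topoisomerase 1 from DNA) were left without drug (WT) or kept in 1 µM erlotinib, an EGFR kinase inhibitor. Exposure lasted 7 days in the group named drug-tolerant cells (DTC), and it lasted 28 days in that named drug-tolerant expanded cells (DTEC). The remaining group was the TDP1 knockout line named KO2, left without drug (KO). All groups go back to a subclonal PC9 line, the cultures of a condition were split from a common flask and then grown apart, and all carry the same batch label. TDP1 was represented by a single knockout line, so the line and the genotype cannot be told apart.

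Aldo-keto reductases use NADPH to reduce aldehydes and ketones to alcohols, and aldehyde dehydrogenases use NAD or NADP to oxidise aldehydes to acids. Together they clear the reactive aldehydes that come from lipid peroxidation, tobacco smoke and drugs, and they set the local supply of steroids, prostaglandins and retinoids. Several of them, AKR1B10 and the AKR1C genes foremost, are known targets of the antioxidant transcription factor NRF2 and are often abundant in non-small-cell lung cancer, while ALDH1A1, ALDH1A3 and ALDH3A1 account for much of the aldehyde dehydrogenase activity by which stem-like tumour cells are sorted.

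The libraries held 25572691 to 38373679 estimated counts. Expression is given in CPM, counts per 1e6 of the library total scaled by TMM (a factor per library that balances the bulk of genes), and 3 counts, taken as the counting floor, corresponded to 0.0824 to 0.115 CPM. The floor covers counting error only. TDP1 was at 28.1, 25.1 and 25.8 CPM in WT and at 10.1, 11.3 and 10.98 CPM in KO, so all KO libraries lay below all WT libraries (log2 fold change -1.29, SE 0.110, edgeR quasi-likelihood adjusted p 1.302e-05). A low TDP1 level was not particular to KO. In DTC, which are wild type, TDP1 was at 15.7, 12.7 and 13.5 CPM (log2 fold change against WT -0.92, edgeR adjusted p 3.56e-06). All 6 epithelial markers (EPCAM, CDH1 and keratins 7, 8, 18 and 19) were above the floor in every library, with summed levels of 10794 to 11394 CPM in WT and 6293 to 7277 CPM in DTC. The 5 alveolar markers summed to 1.298 to 2.46 CPM in WT, 5.55 to 7.54 in KO, 2.198 to 2.90 in DTC and 12.5 to 17.6 in DTEC. SFTPC had at most 3 counts in a library and NKX2-1 at most 15, while SFTPB averaged 1.51 CPM in WT, 6.38 in KO, 0.0695 in DTC and 14.1 in DTEC, and NAPSA 0.127 in WT and 1.62 in DTC. The 4 endothelial markers summed to 58.5 to 61.4 CPM in WT, 75.8 to 77.2 in KO, 42.1 to 50.1 in DTC and 122 to 142 in DTEC, nearly all PECAM1 (32.0 CPM in WT, 8.77 in DTC and 92.1 in DTEC) and CDH5 (27.7 in WT and 36.7 in DTEC). The 5 immune markers summed to 26.7 to 33.6 CPM in WT and 37.3 to 54.2 in DTC, nearly all CD68, with PTPRC at 5 counts or fewer. The 5 fibroblast markers summed to 7.99 to 8.91 CPM in WT and 54.9 to 57.6 in DTC, nearly all COL1A1, with DCN at 2 counts or fewer and COL1A2 at 1 or 0. The part of these markers in the results was not tested. In RNA from whole cultures, fewer cells of a kind and less RNA per cell cannot be told apart.

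Per kilobase of the principal transcript in GENCODE 29, AKR1B1 was the most abundant member in WT at 1870 ± 85.9 CPM per kb (SD, n = 3). AKR1B10 followed at 884 ± 50.2, AKR1C2 at 416 ± 24.1 and ALDH1A3 at 232 ± 3.09 CPM per kb. AKR1C3 (58.9 ± 4.04) and ALDH3A1 (56.3 ± 2.94) did not differ beyond their spread. AKR1C1 was at 17.5 ± 1.199, ALDH3B1 at 7.93 ± 0.974, ALDH2 at 4.397 ± 0.259 and ALDH1A1 at 0.0519 ± 0.0507 CPM per kb. The order depends on the length used. By the union of annotated exons AKR1B10 ranked first and AKR1B1 next in WT and KO, and AKR1B1 first in DTC and DTEC. The annotated AKR1C1 and AKR1C2 transcripts are 6705 and 3756 bases long for the same 969 coding bases. Per kilobase of coding sequence AKR1C2 (1611) stood above AKR1B10 (1482), and AKR1C1 (121) above AKR1C3 (110) and ALDH3A1 (73.7). In DTC, per kilobase of transcript, AKR1B10 went from rank 2 to rank 4 of 10 and ALDH1A3 from rank 4 to rank 2.

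After 7 days of erlotinib AKR1B10, AKR1C1, AKR1C2 and ALDH2 were lower and ALDH3B1 was higher than in WT. After 28 days AKR1C1, AKR1C2, ALDH3A1 and ALDH3B1 were above WT while AKR1B10 and ALDH1A3 were below it. AKR1B1 was also called lower at both times and AKR1C3 higher after 28 days, calls that were lost in some alternative fits. In DTC against WT, 1 of the 9 tested members was called higher and 5 lower (adjusted p under 0.05 over 17115 genes), beside 34% and 33.3% of all tested genes (67.3% in all). The 3 libraries of each group did not overlap for 6 of the 9, beside 68.9% of tested genes, so neither share stood above the background. The members' median log2 fold change was -0.34, against 0.06 over all tested genes, and it turned to 0.02 against 0.41 with library totals alone. In DTEC against WT, 5 were called higher and 3 lower, beside 26% and 26.3% of all tested genes (52.3% in all), with a median of 0.47 against 0.02, and 8 did not overlap, beside 62.4%. In DTEC against DTC, 6 were called higher and 1 lower, beside 28.8% and 26.6% (55.4% in all), with a median of 0.77 against -0.01, and 7 did not overlap, beside 56.6%. In KO against WT, 0 were called higher and 2 lower, beside 2.76% and 1.55% (4.31% in all), with a median of -0.36 against -0.01. These comparisons share the WT or the DTC libraries, so their counts are not independent. The 10 members together took 0.622% ± 0.0212 of all counts in WT, 0.615% ± 0.0127 in KO, 0.456% ± 0.0264 in DTC and 0.638% ± 0.0208 in DTEC.

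**Figure D1:**
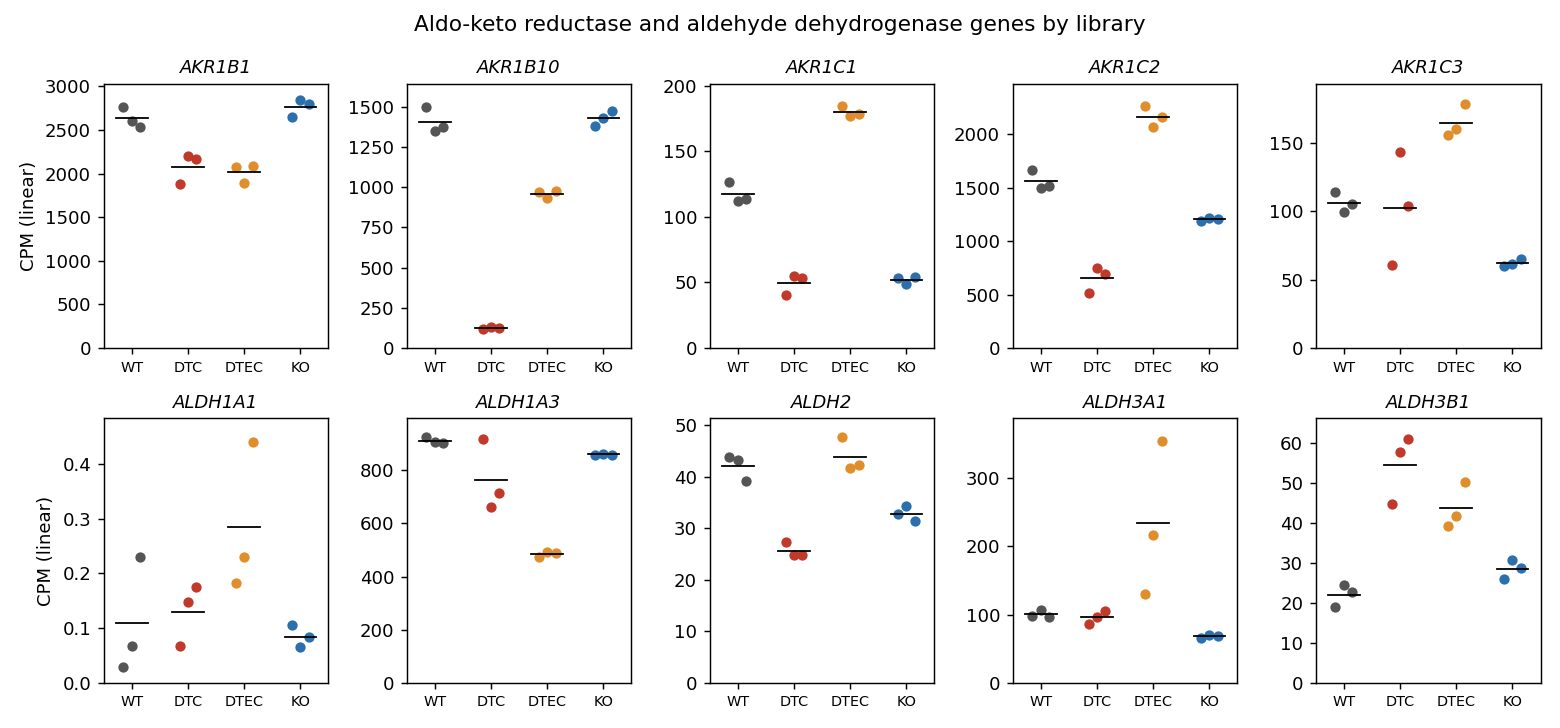
Level of each of the 10 genes in CPM (linear axis from 0, a scale of its own in each panel) in the 3 libraries of WT, DTC, DTEC and KO; points are libraries and lines are group means. The 3 DTC points of AKR1B10 lie between 122 and 130 CPM and the 3 WT points between 1348 and 1496 CPM, while ALDH3A1 is spread from 130 to 354 CPM in DTEC.

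AKR1B10 (ENSG00000198074, chromosome 7, 134527592 to 134541408, plus strand, GRCh38), a reductase of retinaldehyde and of lipid-derived aldehydes, had the largest fall of the 9 tested members in DTC. It was at 1496, 1348 and 1371 CPM in WT, at 122, 130 and 124 in DTC, at 968, 931 and 976 in DTEC and at 1381, 1429 and 1475 in KO. The DTC libraries lay far below all others, the DTEC libraries lay between DTC and WT, and the KO and WT libraries overlapped. The fall in DTC was 11.2-fold (log2 fold change -3.49, SE 0.0957, edgeR adjusted p 9.94e-12). DTEC was 7.65-fold above DTC (2.94, SE 0.0934, adjusted p 3.97e-11) and still below WT (-0.55, SE 0.0869, adjusted p 0.00011). In KO the log2 fold change was 0.02 with a 95% interval of -0.16 to 0.21 (edgeR adjusted p 0.925).

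Its neighbour AKR1B1 (ENSG00000085662, chromosome 7, 134442350 to 134459284, minus strand), the aldose reductase that turns glucose into sorbitol, moved little. AKR1B1 was at 2767, 2605 and 2531 CPM in WT, 1881, 2197 and 2165 in DTC, 2075, 1893 and 2082 in DTEC and 2650, 2839 and 2802 in KO. All DTC and all DTEC libraries lay below all WT libraries, with log2 fold changes of -0.34 (SE 0.0961, edgeR adjusted p 0.00602) and -0.39 (SE 0.0961, adjusted p 0.00386). The call in DTC depended on the scaling. With library totals alone the value was 0.02 (adjusted p 0.89) and with upper-quartile factors -0.05 (adjusted p 0.666), and in DTEC totals alone gave -0.22 (adjusted p 0.0658).

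A ratio of 2 genes within a library does not depend on the scaling. AKR1B10 had 54.1, 51.7 and 54.2 counts per 100 AKR1B1 counts in WT, 6.47, 5.93 and 5.71 in DTC, 46.6, 49.2 and 46.9 in DTEC and 52.1, 50.3 and 52.6 in KO. DTC did not overlap with WT or DTEC, and neither did DTEC with WT, and the exact permutation test (two-sided) gave 0.1 each time, which is its lower limit with 3 libraries a group. KO overlapped with WT (exact permutation p 0.3). Over the 24 such tests, on 6 ratios and shares, the Benjamini-Hochberg value of a p of 0.1 was 0.126.

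The coding sequences of AKR1B1 and AKR1B10 are 76.7% identical in GENCODE 29. No stretch of 101 bases, the read length, in the AKR1B1 transcripts recurs in another gene's transcripts, and 1.48% of those in AKR1B10 do, chiefly in AKR1B15. AKR1B15, a further gene of this cluster, was at 2.43 CPM on average in WT and 9.12 in DTC, and rose there (log2 fold change 1.91, edgeR adjusted p 2.72e-05) while AKR1B10 fell.

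The AKR1C genes lie side by side on chromosome 10 and reduce ketosteroids and prostaglandins: AKR1C1 (ENSG00000187134, 4963253 to 4983283, plus strand) inactivates progesterone, AKR1C2 (ENSG00000151632, 4987400 to 5018031, minus strand) inactivates dihydrotestosterone, and AKR1C3 (ENSG00000196139, 5035354 to 5107686, plus strand) makes testosterone and prostaglandin F. AKR1C1 and AKR1C2 differ at 19 of 969 coding bases (98.0% identity), and AKR1C3 differs from AKR1C1 at 83 (91.4%). The deposited counts of all 3 carried decimals in 12 of 12 libraries, as arises where reads that match several genes are shared out. Decimals alone do not mark sharing among paralogs. AKR1B1 had 0 and ALDH3B1 had 2 whole values of 12, and no 101-base window of either recurs in another gene's GENCODE 29 transcripts. The 101-base coding window in which AKR1C1 and AKR1C2 differ most, coding bases 62 to 162 counted from the A of the start codon, shows what a read must resolve; it is shown 5′ to 3′ from the GENCODE 29 transcripts, with capitals where a gene differs from AKR1C2.
AKR1C1: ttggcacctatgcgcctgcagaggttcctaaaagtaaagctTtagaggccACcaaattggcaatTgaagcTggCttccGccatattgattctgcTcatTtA
AKR1C2: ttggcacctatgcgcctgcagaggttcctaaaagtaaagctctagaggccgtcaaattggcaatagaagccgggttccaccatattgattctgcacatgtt
AKR1C3: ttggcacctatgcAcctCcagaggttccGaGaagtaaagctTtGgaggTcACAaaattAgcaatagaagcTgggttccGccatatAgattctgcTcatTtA

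This window holds 10 differences between AKR1C1 and AKR1C2, and 17 between AKR1C3 and AKR1C2. Of the 869 coding windows of 101 bases, 160 (18.4%) hold no difference between AKR1C1 and AKR1C2, and the longest identical run is 186 bases. Over all annotated transcripts, 16.5% of the 101-base windows of AKR1C1, 22.9% of AKR1C2 and 1.71% of AKR1C3 recur in another gene. The values of AKR1C1 and AKR1C2 are therefore uncertain to the extent that the sharing of reads was, and the sum of the AKR1C genes was fitted as well. The windows stand for single reads, while the RNA was sequenced in pairs. Their percentages are thus not the share of read pairs left unresolved. AKR1C4, the liver member of the cluster, had 0 counts in all 12 libraries, which allows up to 3 counts in each.

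AKR1C2 carried most of the family's reads. It was at 1665, 1498 and 1520 CPM in WT, 520, 745 and 694 in DTC, 2269, 2065 and 2163 in DTEC and 1189, 1219 and 1208 in KO. The 4 groups did not overlap, with DTC lowest, then KO, WT and DTEC. AKR1C2 fell 2.39-fold in DTC (log2 fold change -1.26, SE 0.122, edgeR adjusted p 4.8e-07) and rose 1.39-fold in DTEC against WT (0.47, SE 0.120, adjusted p 0.0044). From DTC to DTEC it rose 3.32-fold (1.73, SE 0.123, adjusted p 6.18e-08).

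AKR1C1 was at 127, 112 and 113 CPM in WT, 40.4, 54.8 and 53.7 in DTC, 185, 177 and 178 in DTEC and 53.1, 48.8 and 53.8 in KO. The DTC and KO libraries overlapped with each other and lay below WT, and the DTEC libraries lay above WT. It fell 2.36-fold in DTC (-1.24, SE 0.115, edgeR adjusted p 3.15e-07), rose 1.53-fold in DTEC against WT (0.62, SE 0.113, adjusted p 0.000395) and was 3.62-fold higher in DTEC than in DTC (1.86, SE 0.117, adjusted p 1.83e-08).

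AKR1C3 was at 114, 99.7 and 106 CPM in WT, 60.7, 144 and 104 in DTC, 156, 161 and 178 in DTEC and 59.8, 61.6 and 65.1 in KO. The DTC libraries were spread on both sides of WT, with DTC replicate 1 near the KO level. Its log2 fold change in DTC was -0.05 with a 95% interval of -0.51 to 0.41 (edgeR adjusted p 0.841), and 0.25 without DTC replicate 1 (adjusted p 0.0599). The DTEC libraries lay above WT and the DTC libraries. AKR1C3 rose 1.55-fold in DTEC against WT (0.63, SE 0.214, adjusted p 0.0244), a call lost without WT replicate 2 (0.0628), WT replicate 3 (0.0527) or DTEC replicate 3 (0.0672). Against DTC it rose by 0.68 (SE 0.214, adjusted p 0.0155), and this call was lost without DTEC replicate 3 (0.0557), with totals alone (0.0634), with upper-quartile factors (0.0742) and when the compared groups were fitted alone (0.0514).

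Summed over the AKR1C genes, which removes the sharing of reads among them, levels were 1905, 1710 and 1739 CPM in WT, 621, 943 and 852 in DTC, 2609, 2403 and 2519 in DTEC and 1302, 1330 and 1327 in KO. The order of the groups was that of AKR1C2. The sum fell 2.22-fold in DTC (log2 fold change -1.15, SE 0.130, edgeR adjusted p 2.39e-06), rose 1.41-fold in DTEC against WT (0.49, SE 0.129, adjusted p 0.00523) and rose 3.12-fold from DTC to DTEC (1.64, SE 0.132, adjusted p 1.94e-07). AKR1C3 took 5.97% ± 0.129 of the AKR1C counts in WT, 4.71% ± 0.171 in KO, 12.4% ± 2.74 in DTC and 6.58% ± 0.564 in DTEC. The DTC share was 9.77% to 15.2%, above every library of the other groups.

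The 250 bases before a RefSeq start of each of the 3 genes (GRCh38.p14) are shown because AKR1C1 and AKR1C2 both fell in DTC and AKR1C3 was not called there. The stretches of AKR1C2 and AKR1C3 lie wholly inside the annotated gene spans given above, and that of AKR1C1 lies inside from base 4963253 on. The annotated spans of the 3 genes thus begin upstream of these RefSeq starts. Which start was in use in PC9 was not tested. Capitals mark bases within the aligned stretch that differ from AKR1C1 or face a gap in it, and bases beyond the aligned stretch are in lower case.
AKR1C1, chr10:4963165-4963414, plus strand: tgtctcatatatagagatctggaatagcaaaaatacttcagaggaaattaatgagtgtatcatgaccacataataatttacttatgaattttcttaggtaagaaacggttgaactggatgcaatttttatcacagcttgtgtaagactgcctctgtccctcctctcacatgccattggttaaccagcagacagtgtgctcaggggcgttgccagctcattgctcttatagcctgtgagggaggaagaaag
AKR1C2, chr10:5003858-5004107, minus strand: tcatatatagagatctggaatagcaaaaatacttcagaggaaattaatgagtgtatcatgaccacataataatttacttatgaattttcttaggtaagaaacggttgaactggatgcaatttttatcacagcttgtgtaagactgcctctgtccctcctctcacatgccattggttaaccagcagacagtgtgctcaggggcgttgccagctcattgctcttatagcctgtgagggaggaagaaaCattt
AKR1C3, chr10:5048531-5048780, plus strand: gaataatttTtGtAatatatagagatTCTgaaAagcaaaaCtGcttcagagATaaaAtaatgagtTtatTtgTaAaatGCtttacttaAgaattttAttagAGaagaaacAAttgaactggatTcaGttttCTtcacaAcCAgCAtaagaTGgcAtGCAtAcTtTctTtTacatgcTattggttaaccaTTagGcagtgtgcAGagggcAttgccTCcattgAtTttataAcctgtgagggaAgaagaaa

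AKR1C2 matches AKR1C1 at all but 1 of 246 aligned bases (99.6%), and AKR1C3 differs at 56 of 241 (76.8% identity). The core of the antioxidant response element to which NRF2 binds, TGACNNNGC on either strand, was searched in the 300 bases from 250 before to 50 after each start. It was found in 0 of the 7 members that are in the RefSeq promoter table (AKR1B1, AKR1C1, AKR1C2, AKR1C3, ALDH1A1, ALDH1A3 and ALDH3B1), in 13.3% of all 35116 promoters of that length, and in 6 of 15 matched NRF2 targets outside the family, among them GCLM, TXNRD1 and GPX2. Among the targets without the element were NQO1, GCLC and SRXN1. AKR1B10, ALDH2 and ALDH3A1 were not in that table and were not searched. The search says only whether these letters are in the windows searched. Each window surrounds a RefSeq start, and whether that start was in use in PC9 was not tested.

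**Figure D2:**
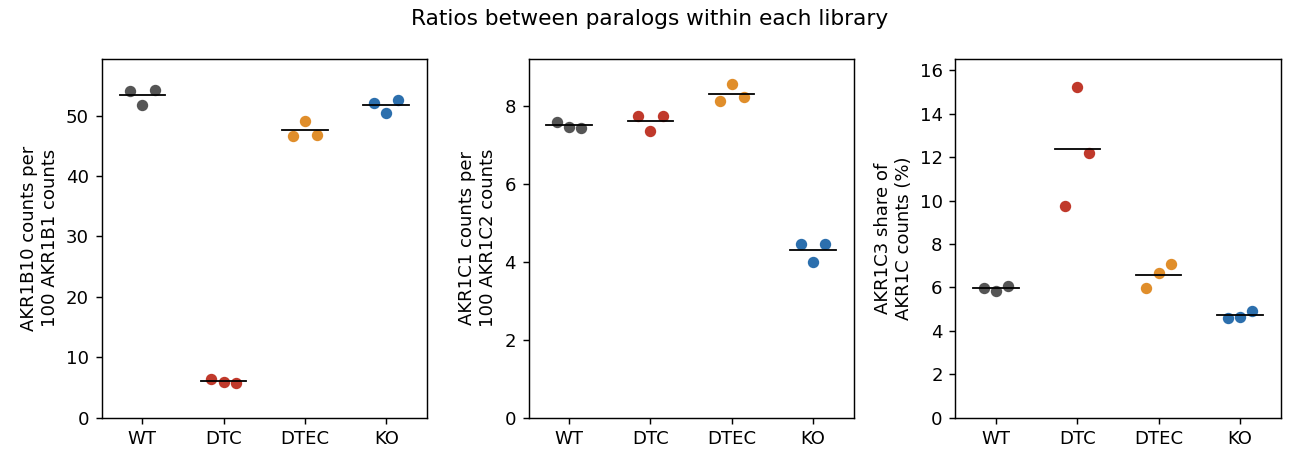
Ratios between paralogs in the 12 libraries (linear axes from 0; points are libraries, lines are group means): AKR1B10 counts per 100 AKR1B1 counts, AKR1C1 counts per 100 AKR1C2 counts, and the AKR1C3 share of all AKR1C counts in percent. AKR1B10 drops to 5.71 to 6.47 in DTC, AKR1C1 drops to 4.003 to 4.47 in KO, and the AKR1C3 share reaches 9.77% to 15.2% in DTC.

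Among the aldehyde dehydrogenases, ALDH1A3 (ENSG00000184254, chromosome 15, 100877714 to 100916626, plus strand), which makes retinoic acid from retinaldehyde, was the most abundant per kilobase of transcript in WT, DTC and KO. In DTEC it was at 123 ± 2.56 CPM per kb and overlapped with ALDH3A1 at 131 ± 63.7, while per kilobase of coding sequence it stood above ALDH3A1 (315 against 172), as it did by the exon union. ALDH1A3 was at 925, 905 and 903 CPM in WT, 917, 662 and 714 in DTC, 473, 491 and 489 in DTEC and 857, 863 and 858 in KO. The DTEC libraries lay below all others, and DTC replicate 1 lay within the WT range while the other two lay below it. It fell 1.88-fold in DTEC (log2 fold change -0.91, SE 0.112, edgeR adjusted p 1.18e-05) and was lower in DTEC than in DTC (-0.66, SE 0.111, adjusted p 0.000187). In DTC the value was -0.25 (95% interval -0.49 to -0.02, adjusted p 0.0556). It passed the threshold without DTC replicate 1 (-0.37, adjusted p 0.000387), and its sign turned with totals alone (0.10) and with upper-quartile factors (0.03).

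ALDH1A1 (ENSG00000165092, chromosome 9, 72900662 to 73080442, minus strand), the other retinaldehyde dehydrogenase of the list and a common stem-like marker, was barely detected and did not pass the filter. Its counts were 1, 2 and 8 in WT, 2, 5 and 6 in DTC, 6, 6 and 16 in DTEC and 3, 2 and 3 in KO. Each group but DTEC had a library at or under 3 counts, and a difference was not detectable at this depth. Fitted with no filter, DTEC against WT gave a log2 fold change of 1.35 (edgeR adjusted p 0.281).

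ALDH3A1 (ENSG00000108602, chromosome 17, 19737984 to 19748943, minus strand), which oxidises aromatic and lipid-derived aldehydes and is induced by smoke in the airway, was at 97.6, 106 and 96.8 CPM in WT, 86.4, 96.3 and 105 in DTC, 130, 216 and 354 in DTEC and 65.3, 70.1 and 68.5 in KO. WT and DTC overlapped, every DTEC library lay above both, and the DTEC libraries differed among themselves more than in any other group. ALDH3A1 rose 2.33-fold in DTEC against WT (log2 fold change 1.22, SE 0.254, edgeR adjusted p 0.00142) and 2.44-fold against DTC (1.29, SE 0.255, adjusted p 0.000933). Without DTEC replicate 3 these values were 0.78 (adjusted p 0.00188) and 0.82 (adjusted p 0.00142). In DTC the log2 fold change was -0.06 with a 95% interval of -0.61 to 0.48 (edgeR adjusted p 0.831). All 12 deposited counts were whole, and no 101-base window of its transcripts recurs in another gene.

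ALDH2 (ENSG00000111275, chromosome 12, 111766887 to 111817529, plus strand), the mitochondrial enzyme that clears acetaldehyde, was at 43.8, 43.2 and 39.2 CPM in WT, 27.4, 24.9 and 24.7 in DTC, 47.7, 41.6 and 42.3 in DTEC and 32.7, 34.3 and 31.5 in KO. DTC was lowest, KO lay between DTC and WT without overlap, and DTEC overlapped with WT. It fell in DTC (log2 fold change -0.71, SE 0.0959, edgeR adjusted p 1.3e-05) and rose from DTC to DTEC (0.77, SE 0.0959, adjusted p 1.19e-05). DTEC against WT gave 0.06, with a 95% interval of -0.14 to 0.26 (adjusted p 0.614). Of its 101-base windows, 5.85% recur in another gene, chiefly in AC002996.1, and 0 of its 12 deposited counts were whole.

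ALDH3B1 (ENSG00000006534, chromosome 11, 68008578 to 68029282, plus strand), which oxidises long-chain aldehydes at membranes, was the member called higher in DTC. It was at 19.1, 24.4 and 22.8 CPM in WT, 44.7, 57.7 and 60.96 in DTC, 39.3, 41.7 and 50.2 in DTEC and 26.0, 30.9 and 28.6 in KO. All DTC and DTEC libraries lay above all WT and KO libraries. ALDH3B1 rose 2.47-fold in DTC (1.302, SE 0.141, edgeR adjusted p 1.51e-06) and 1.98-fold in DTEC (0.99, SE 0.141, adjusted p 4.57e-05). Between DTEC and DTC the difference of -0.32 was not called (95% interval -0.61 to -0.02, adjusted p 0.0657), but it was called with 4 of the 6 alternative settings and without DTC replicate 1 (-0.45, adjusted p 0.00446) or DTEC replicate 3 (-0.47, adjusted p 0.0184).

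**Figure D3:**
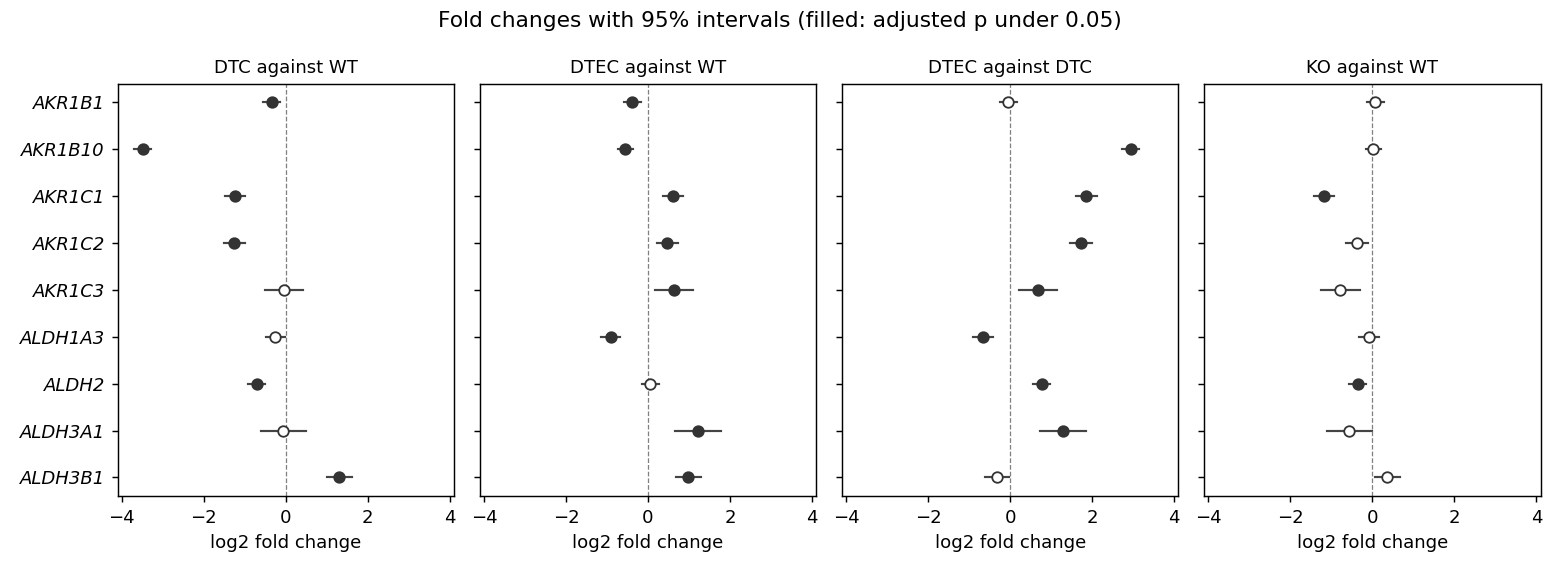
Log2 fold changes of the 9 tested genes in the 4 comparisons with 95% intervals from the edgeR fit (filled points: adjusted p under 0.05). AKR1B10 stands apart at -3.49 in DTC against WT, and AKR1C1 at -1.18 in KO against WT.

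KO against WT asks what differed in untreated cells of the knockout line. AKR1C1 fell 2.26-fold in KO (log2 fold change -1.18, SE 0.115, edgeR adjusted p 4.67e-05), and AKR1C2, its close paralog, had -0.37 (95% interval -0.63 to -0.12, adjusted p 0.109). AKR1C1 had 7.60, 7.48 and 7.45 counts per 100 AKR1C2 counts in WT and 4.47, 4.003 and 4.45 in KO, against 7.77, 7.36 and 7.74 in DTC and 8.14, 8.57 and 8.24 in DTEC. The ratio in KO lay below every other library (exact permutation p 0.1 against WT, the lower limit), while DTC overlapped with WT (exact permutation p 0.4). The 2 genes share reads, so the size of this shift depends on how the authors' counting resolved them. The sum of the AKR1C genes gave -0.44 in KO (95% interval -0.71 to -0.16, edgeR adjusted p 0.0777).

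ALDH2 was called lower in KO (-0.36, SE 0.0952, edgeR adjusted p 0.0493). Its log2 fold change stayed between -0.39 and -0.29 in all 12 alternatives, but the call was lost with totals alone, with upper-quartile factors, with no filter and without any single one of the 6 KO and WT libraries (adjusted p 0.0534 to 0.267), settings under which 5.01% (totals), 4.48% (upper quartile) and 3.65% (no filter) of all tested genes were called. Without a library, 321 to 426 genes were called in all, against 738. AKR1C3 (-0.78, 95% interval -1.24 to -0.31, adjusted p 0.0631), ALDH3A1 (-0.56, -1.11 to -0.01, adjusted p 0.289) and ALDH3B1 (0.37, 0.07 to 0.67, adjusted p 0.184) were not called, although KO and WT did not overlap for these 3 genes. Without overlap were also AKR1C1, AKR1C2, ALDH1A3 and ALDH2, or 7 of the 9 tested members, beside 35.7% of all tested genes. AKR1B1 (0.07, 95% interval -0.14 to 0.27) and AKR1B10 overlapped. When the KO and WT libraries were fitted alone, 6 members were called, 5 lower (AKR1C1, AKR1C2, AKR1C3, ALDH2 and ALDH3A1) and ALDH3B1 higher, beside 17.5% of the 15183 genes then tested. With no filter AKR1C1, AKR1C3 and ALDH3A1 were called lower, beside 3.65%. DESeq2 called 4 lower, beside 7.01%, and the AKR1C sum passed in both fits (adjusted p 0.0158 with DESeq2 and 0.000201 with the 2 groups alone).

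Other genes of the 2 superfamilies and of NRF2 and retinoid biology were counted by lists. The counts are to be set beside the shares of all tested genes called. These were 34% higher and 33.3% lower in DTC against WT, and 26% and 26.3% in DTEC against WT. They were 28.8% and 26.6% in DTEC against DTC, and 2.76% and 1.55% in KO against WT. Counts under the other scalings have a background of their own in DTC against WT. Totals alone called 11710 genes there, 68.4% of them higher, and upper-quartile factors called 11646, 65.0% of them higher. The main fit called 11520, 50.5% of them higher. A count near these shares is not a result about its list. A count away from them is no independent test, since the lists were chosen with earlier results of these data known. Of 20 NRF2 targets outside the family, all tested, 17 were called lower and 1 higher in DTC, with a median log2 fold change of -0.90 against 0.06 over all tested genes. With library totals alone or upper-quartile factors 11 were called lower and 1 higher (medians -0.55 against 0.41 and -0.61 against 0.34). ABCC2, an export pump for conjugates, fell from 172 ± 8.91 to 30.0 ± 5.70 CPM (-2.52, edgeR adjusted p 7.01e-10), and HMOX1, which degrades heme, rose (0.30, adjusted p 0.0218). From DTC to DTEC, 15 of the 20 were called higher and 1 lower (median 1.204), with ABCC2 back by 2.46 (adjusted p 2.12e-09) and OSGIN1, an oxidative stress response gene, lower (-0.74, adjusted p 0.000231). In DTEC against WT, 6 were called higher, 4 lower and 10 were not called (median 0.07). ABCC3, another export pump, rose from 170 ± 9.55 to 587 ± 40.6 CPM (1.79, adjusted p 5.5e-09), and OSGIN1 fell (-1.23, adjusted p 2.69e-06). In KO, 1 was called higher (ABCC3, 0.46, adjusted p 0.011) and 1 lower (GPX2, a glutathione peroxidase, -0.58, adjusted p 0.0222).

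Of 7 regulators of NRF2, KEAP1, its repressor, fell in DTC (-0.77, edgeR adjusted p 4.46e-05), MAFK, a dimer partner, rose in DTC (0.76, adjusted p 0.00168), and 0 were called in KO. NFE2L2, the gene of NRF2 itself and counted among the 7, was also called lower in DTC (-0.40, edgeR adjusted p 0.0172). With totals alone or upper-quartile factors KEAP1 was the 1 called lower there (-0.42 and -0.49). In DTC 2 were called higher and 3 lower (1 lower with totals alone or upper-quartile factors), and in DTEC against WT 2 higher and 2 lower, with BACH1, a competitor of NRF2, higher by 1.18 (adjusted p 3.54e-05) and MAFK lower (-0.93, adjusted p 0.000701). BACH1 was also higher in DTEC than in DTC (1.29, adjusted p 1.53e-05) and MAFK lower (-1.69, adjusted p 3.9e-06).

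The remaining aldo-keto reductases and aldehyde dehydrogenases did not move as a block. Of 9 other aldo-keto reductases, 5 were tested, with 3 higher and 1 lower in DTC, where AKR1A1, which reduces glucuronate and other aldehydes, had 0.34 (adjusted p 0.0369) and AKR7A2 had -0.45 (adjusted p 0.00581), a call lost with totals alone (-0.10) and upper-quartile factors (-0.16). Of 14 other aldehyde dehydrogenases 12 were tested, with 5 higher and 4 lower in DTC (8 and 2 with totals alone or upper-quartile factors) and 8 higher and 3 lower in DTEC against WT. ALDH3A2, which oxidises fatty aldehydes, fell in DTC from 424 ± 10.3 to 171 ± 14.6 CPM (-1.304, edgeR adjusted p 1.49e-08) and was higher in DTEC than in DTC by 1.54 (adjusted p 8.79e-09). ALDH3B2, the close relative of ALDH3B1, was at 8.66 ± 1.67 CPM in WT, 20.98 ± 1.69 in KO, 16.3 ± 1.74 in DTC and 42.8 ± 1.29 in DTEC. It rose in DTC (0.92, adjusted p 3.83e-05), in DTEC (2.31, adjusted p 2.22e-08) and in KO (1.28, adjusted p 0.000127). ALDH16A1 fell in DTEC (-1.004, adjusted p 0.0125), and ALDH1B1, a mitochondrial relative of ALDH2, was lower in DTEC than in DTC (-0.86, adjusted p 5.84e-06).

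Genes that handle retinoids, the substrates of ALDH1A3 and AKR1B10, split in DTC, with 7 of 15 tested called higher and 7 lower (8 and 5 with totals alone or upper-quartile factors). CYP26B1, which degrades retinoic acid, fell from 19.5 ± 1.44 to 5.17 ± 0.204 CPM (-1.91, edgeR adjusted p 5.05e-09). In DTEC against WT 8 were called higher and 3 lower, with CYP26B1 lower (-1.21, edgeR adjusted p 9.55e-07). From DTC to DTEC 9 were called higher and 3 lower, with RDH10, which makes retinaldehyde, higher by 1.54 (adjusted p 6.06e-07). STRA6, the retinol uptake receptor, rose from 73.5 ± 5.73 CPM in WT to 213 ± 16.5 in DTEC (1.53, adjusted p 6.34e-08) and to 112 ± 5.49 in KO (0.61, adjusted p 0.00403). In KO 4 of the 15 were called higher and 0 lower.

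**Figure D4:**
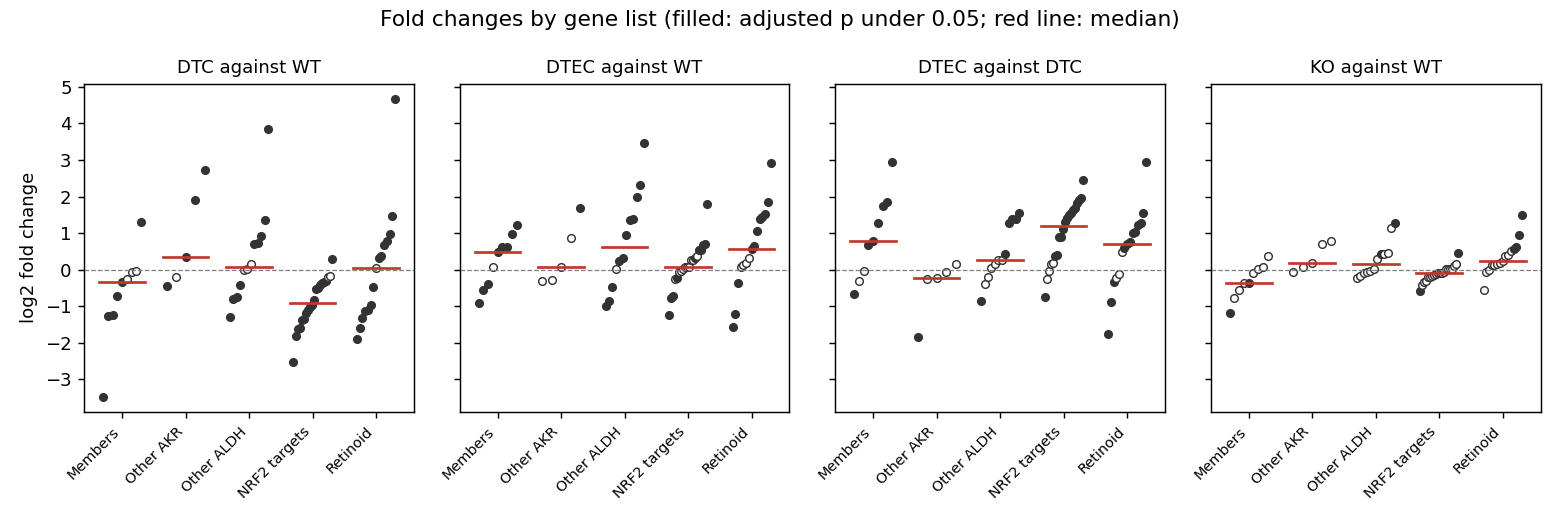
Log2 fold changes of the tested genes of 5 lists in the 4 comparisons, sorted within each list (filled points: adjusted p under 0.05; red lines: list medians). The median of the NRF2 targets lies at -0.90 in DTC against WT and at 1.204 in DTEC against DTC, and the median of the 9 tested members at -0.34 and 0.77.

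Over the 12 libraries, which share 4 groups, the pattern of AKR1B10 was most like that of CTBP2, a transcriptional corepressor (Pearson r 0.997 of log2 CPM), SOX7, a SOX transcription factor (0.996), and F2RL1, a protease-activated receptor (0.995), among 9791 genes with a mean of at least 10 CPM. A high r does not mean a change of the same size. CTBP2 was at 101 CPM in WT, 101 in KO, 46.5 in DTC and 88.3 in DTEC. SOX7 was at 47.3 CPM in WT, 42.6 in KO, 3.55 in DTC and 29.1 in DTEC. AKR1C2 was most like the ribosomal protein genes RPL4 (0.993) and RPL10 (0.990) and the host transcript MIR205HG (0.987), with RPL4 at 1400 CPM in WT, 1204 in KO, 791 in DTC and 1616 in DTEC. AKR1C1 had less close neighbours: EIF3H, a translation initiation factor subunit (0.939), AXL, a receptor tyrosine kinase (0.935), and FAM110C (0.934). EIF3H was at 275 CPM in WT, 234 in KO, 213 in DTC and 323 in DTEC. AXL was at 53.1 CPM in WT, 21.4 in KO, 21.98 in DTC and 56.4 in DTEC. Within the list, r was highest for AKR1C2 and ALDH2 (0.923), then for AKR1C1 and AKR1C2 (0.884). It was lowest for ALDH1A3 and ALDH3A1 (-0.789), then for AKR1C3 and ALDH1A3 (-0.788) and for AKR1B10 and ALDH3B1 (-0.777). These correlations describe groups of libraries and carry no test.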

How the data were processed

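Polyadenylated RNA of 12 PC9 cultures was sequenced as 101-base pairs after stranded library preparation, per the labels' protocols. The authors deposited expected counts per gene, meaning estimated read counts not scaled to depth. The submitters' processing notes name RSEM 1.3.1, Bowtie2 2.5.2, DESeq2 1.40.2 and GRCh38, and the annotation is not given in the sources used here. Of the deposited values of genes with a mean of at least 10, 71.4% were whole. No pair of libraries was identical.

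Values were rounded and fitted in R 4.3.3 with edgeR 4.0.16: filterByExpr by group (17115 of 62754 genes kept), TMM scaling, all 12 libraries with 1 mean per group, robust quasi-likelihood F tests, Benjamini-Hochberg adjustment over all tested genes, and a threshold of 0.05. SE was taken from the F statistic, and 95% intervals from the fit's degrees of freedom. AKR1C1 to AKR1C4 were also summed before rounding and the table refitted. The fit was tested on simulated data with known changes. The cultures of a condition came from a common flask, per the series' design text, and p-values measure the spread between them.

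Symbols came from a table of Ensembl identifiers (62700 matched), coordinates and transcripts from GENCODE 29 (GRCh38), and promoters from RefSeq (GRCh38.p14, 7 of 10 members matched). Named genes were the 10 members, AKR1C4 and TDP1, and, per list and comparison, the called gene with the largest rise and the one with the largest fall at a mean of at least 10 CPM. For the 3 members with the widest span between group means, the 3 genes with the highest correlation of log2 CPM (prior count 2) were also named. A gene that the rule would name is not reported here. AKR1B15 and NFE2L2 were named after their values were seen, as were the promoters named with and without the element. The members and lists were chosen with earlier results of these data known. Alternatives were DESeq2 1.42.0, library totals alone, upper-quartile factors, no filter, the compared groups alone, the replicate number as a block, and each library left out in turn. The lists were also counted under the other scalings, chosen after seeing the data. The table had 0 columns of other samples.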

Additional observations from a re-analysis of the deposited data

How the results depend on the processing

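Of 480 refitted values for the 9 tested members and the AKR1C sum, 432 kept their direction and their side of the threshold. In DTC against WT, the values that changed sign were AKR1B1 (0.0157), AKR1C3 (0.304), ALDH1A3 (0.101) and ALDH3A1 (0.291) with totals alone, and AKR1C3 (0.244), ALDH1A3 (0.0318) and ALDH3A1 (0.225) with upper-quartile factors. Both settings raise the median of all genes, by 0.35 and 0.29 on the log2 scale. Leaving out libraries gave -0.313 to 0.2496 for AKR1C3 and -0.0908 to 0.0408 for ALDH3A1. The falls of AKR1B10, AKR1C1 and AKR1C2 and the rise of ALDH3B1 in DTC held in all 12 alternatives. The count of members called in KO was 2, and it was 4 with DESeq2, 1 with totals alone, 1 with upper-quartile factors, 3 with no filter, 6 with the 2 groups alone, 2 with the replicate block, and 1 (AKR1C1) without any one library, where calls over all genes were 321 to 426 against 738. Among all genes, the 2 groups alone gave 2656 calls in KO against 738. The AKR1C sum in KO was -0.43 with DESeq2 and -0.41 with the 2 groups alone, both past the threshold. Deviations of same-numbered libraries had low correlations of -0.01 to 0.18, so whether the replicate numbers pair the libraries was not settled. With the replicate block, 7 members were called in DTC, 8 in DTEC, 8 in DTEC against DTC and 2 in KO, beside 11775, 9255, 9732 and 887 of the 17115 tested genes (11520, 8955, 9480 and 738 without it). With it ALDH1A3 in DTC (-0.26, edgeR adjusted p 0.0488) and ALDH3B1 in DTEC against DTC (-0.31, adjusted p 0.0169) passed the threshold. In KO every library correlated best with the WT library of its own number, a hint from the data and not the design. The call of ALDH2 in KO held in 3 of 12 alternatives and that of AKR1C1 in all 12. Depth limits what can be said of ALDH1A1 and AKR1C4.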
